A study of Arabidopsis thaliana with 27 samples.

Results

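The plastid genome transcripts of sorted Arabidopsis thaliana root cells were taken as the rows whose gene identifier starts with ATCG, which were 133 of the 34262 gene entries listed in each library. The cells were protoplasts of Col-0 roots, from plants grown for 10 days by the labels and for slightly longer by the methods, sorted by fluorescence from lines in which GFP marks the non-hair epidermis (pGL2:GFP), the cortex (pCORTEX:GFP) or the xylem-pole pericycle (E3754). Roots of each line had received flg22, a peptide of bacterial flagellin, Pep1, a plant danger peptide, or water (mock), with 3 libraries for each of the 9 combinations and 27 in all. The labels give the peptide dose as 1 mM and an incubation of 1 h, whereas the design text gives 1 µM and sampling at 2 h, and at least 10000 protoplasts were collected per sort. The methods describe 3 independent biological experiments for each marker line, so the libraries of a cell type may not all be independent. Fits over all 27 libraries treat each library as a unit, with number terms common to the cell types. The p-values and SDs below therefore measure the spread between libraries and not between experiments. The libraries carry the numbers 1 to 3 and were sequenced in 7 pools. The epidermis shared no pool with the other cell types, so pool and cell type cannot be told apart in comparisons with it, whereas 2 cortex and 2 pericycle libraries, all labelled Pep1, shared 1 pool, which is the pool meant below by the shared pool. In another pool pericycle Pep1 3 stood beside the cortex flg22 libraries.

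Plastids keep a small circular genome that encodes core subunits of both photosystems, of the cytochrome b6f complex, of the ATP synthase and of an NADH dehydrogenase-like complex, the large subunit of Rubisco, part of the plastid ribosome with its rRNAs and tRNAs, and the core of a bacterial-type RNA polymerase. That polymerase needs sigma factors made from nuclear genes, and a second, phage-type polymerase that is wholly nuclear-encoded serves other plastid promoters, among them those of the polymerase genes themselves and of accD. Root plastids are mostly not green and serve fatty acid, amino acid and hormone synthesis. AccD is a subunit of the acetyl-CoA carboxylase that starts fatty acid synthesis.

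Bacterial-type promoters in plastids carry a pair of boxes whose textbook letters are TTGACA and TATAAT. The pair was searched, with 16 to 19 bases between the boxes and at most 1 of the 12 letters different, in the 300 bases before the start codon of the 71 single-copy coding members, in the RefSeq plastid sequence of assembly TAIR10.1. It was found on the strand of the gene in 3 windows (4.23%) and on the opposite strand in 0. TTGACA, with or without the other box, stood in 7 windows (9.9%). The 3 runs are shown because psbA and ndhF were among the members that differed most between cell types, in opposite directions, and capitals mark the boxes.
psbA, chrPt:1530-1559, minus strand, 115 bases before the start codon: TTGACAtggctatataagtcatgtTATACT
ndhF, chrPt:112836-112864, minus strand, 226 bases before the start codon: TTGACAgtaacttagtaatatttTTTAAT
rpl32, chrPt:113191-113220, plus strand, 258 bases before the start codon: TTTACAtatgatgtgaagaaatatTATAAT
A match is a description of letters and not a promoter call. Some members overlap, and psbD and psbC, which encode the D2 and CP43 proteins of photosystem II, do so over 53 bases. In this stretch the capitals mark the start codon of psbC, and the last letters are the stop codon of psbD.
psbD and psbC, chrPt:33720-33772, plus strand: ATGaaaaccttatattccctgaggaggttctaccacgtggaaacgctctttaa

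Plastid transcripts took a small share of the counts, and the share was lowest in epidermis libraries and highest in pericycle libraries. They made up 0.414 ± 0.0968% of the gene counts in epidermis, 0.704 ± 0.106% in cortex and 1.07 ± 0.157% in pericycle (SD, n = 9 each). Across the 9 libraries the lowest, median and highest shares were 0.291, 0.409 and 0.610% in epidermis, 0.482, 0.723 and 0.850% in cortex, and 0.912, 1.09 and 1.43% in pericycle. Every pericycle library lay above every library of the other cell types, whereas epidermis and cortex overlapped through epidermis mock 3 (0.610%), epidermis Pep1 1 (0.487%) and cortex mock 3 (0.482%). In pooled sorted cells, fewer plastid-rich cells, fewer plastids per cell and less plastid RNA cannot be told apart.

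The order of epidermis and cortex depended on the denominator. Read pairs that the counting could not place uniquely were 39.2 ± 8.21% of all listed pairs in epidermis, 60.0 ± 3.73% in cortex and 64.0 ± 2.50% in pericycle (SD, n = 9 each), and they are in no gene count. As a share of all listed read pairs, plastid transcripts were 0.214 ± 0.0728% in epidermis, 0.192 ± 0.0163% in cortex and 0.251 ± 0.0334% in pericycle, and the 3 ranges overlapped (0.119 to 0.345%, 0.168 to 0.216% and 0.199 to 0.309%). The log2 ratio of the mean shares of epidermis and cortex was -0.78 over gene counts and 0.09 over all pairs. For cortex and pericycle it was -0.61 over gene counts, -0.38 over all pairs, and -0.43 over gene counts within the pool that holds both. Over all pairs the libraries of that pool overlapped, with 0.1955 and 0.2073% in cortex and 0.1992 and 0.2199% in pericycle. The part of the unplaced reads in the differences was not tested.

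**Figure D1:**
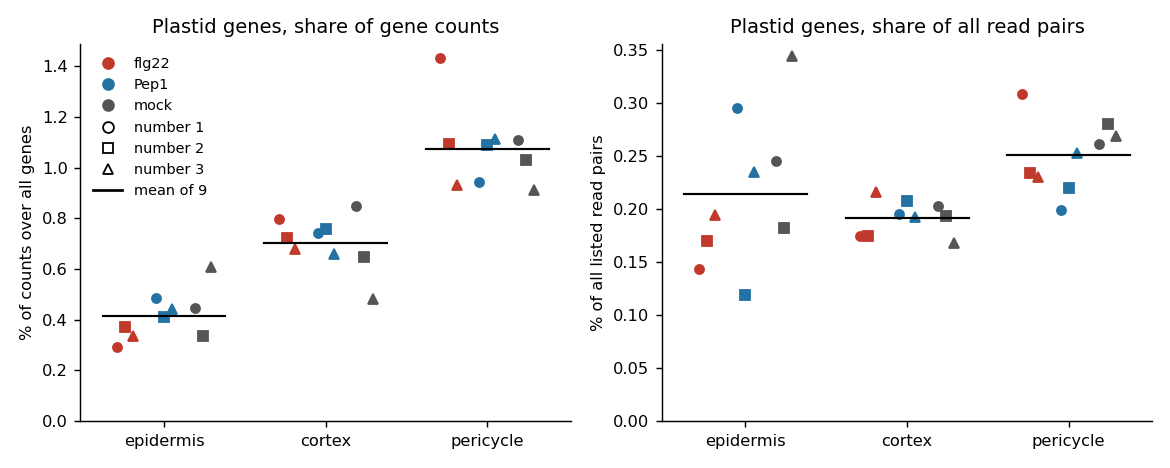
Plastid share of each of the 27 libraries (vertical axes, percent) by cell type, as a share of the counts over all genes (left) and of all listed read pairs (right). Colour is the treatment label, the symbol is the library number and the line is the mean of 9 libraries. Over gene counts the pericycle libraries (0.912 to 1.43%) sit above all others, and over all read pairs the 3 cell types overlap.

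Over gene counts the label and the number moved the share less than the cell type did. Over all read pairs numbers 3 and 2 differed more than epidermis and cortex did, as given at the end. Libraries labelled flg22, Pep1 and mock averaged 0.739, 0.738 and 0.714% of the gene counts, and numbers 3, 2 and 1 averaged 0.685, 0.717 and 0.789%. Within a cell type the labels overlapped, with 1 exception. In epidermis the share was 0.291, 0.371 and 0.337% in the flg22 libraries and 0.487, 0.409 and 0.442% in the Pep1 libraries, and the mock libraries (0.448, 0.333 and 0.610%) spanned both. The epidermis flg22 libraries shared a pool with mock 1 and 2, and the Pep1 libraries shared another with mock 3. Between flg22 and Pep1 in epidermis, label and pool cannot be told apart. The mitochondrial share of the gene counts was 28.1% in epidermis, 27.1% in cortex and 32.0% in pericycle.

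A few genes held most of the plastid counts. The 95 members that passed the filter on low counts were tested, 9 members had no count in any library and 21 had fewer than 10 counts in all. Over the 27 libraries accD held 19.3% of the plastid counts, atpA, the alpha subunit of the ATP synthase, held 8.64%, and psaB, a core subunit of photosystem I, held 7.91%. Next came atpB (4.03%), the beta subunit of the ATP synthase, psaA (3.70%), the partner of psaB, clpP1 (3.62%), a protease subunit, rbcL (3.02%), the large subunit of Rubisco, psbA (2.84%), the D1 protein of photosystem II, psbB (2.77%), its CP47 antenna protein, and psbD (2.68%). The genome holds the inverted repeat in 2 copies, and 24 members could be placed wholly in it by their names. They had 1.46% of the plastid counts, since read pairs from them have 2 possible places. Entries whose names also occur outside the repeat, or match no reference gene, are not among the 24. Levels can be compared between genes only per length, and among the 69 single-copy coding members psaI (16% of the summed counts per kb), accD (10.1%), clpP1 (4.76%) and atpA (4.43%) led. PsaI encodes a small photosystem I subunit of 114 bases, and whether read pairs that reach past so short a gene raise its rate was not tested.

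The mix of plastid transcripts differed between cell types. Scaled within the plastid genes, transcripts for the photosystems, cytochrome b6f, ATP synthase and Rubisco together were 38.8 ± 1.59% in epidermis, 46.7 ± 2.22% in cortex and 60.0 ± 4.09% in pericycle (SD, n = 9 each). Their ranges did not overlap (36.1 to 41.4%, 44.5 to 51.5% and 51.9 to 65.1%). Photosystem II held 6.53 ± 0.473% in epidermis, 10.4 ± 0.932% in cortex and 19.5 ± 2.47% in pericycle, and photosystem I held 9.12 ± 0.667%, 14.8 ± 1.01% and 19.1 ± 2.11% in the same order. The ATP synthase went the other way between epidermis and cortex, with 18.3 ± 0.652% in epidermis, 13.8 ± 0.930% in cortex and 15.2 ± 1.47% in pericycle. Ribosomal protein transcripts (13.9 ± 1.31, 9.04 ± 0.961 and 11 ± 1.38%) and those of the plastid RNA polymerase (7.16 ± 2.00, 3.82 ± 0.549 and 5.99 ± 1.13%) were likewise highest in epidermis and lowest in cortex. Rubisco was highest in cortex, with 4.06 ± 0.402% against 2.17 ± 0.201% in epidermis and 2.85 ± 0.459% in pericycle.

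**Figure D2:**
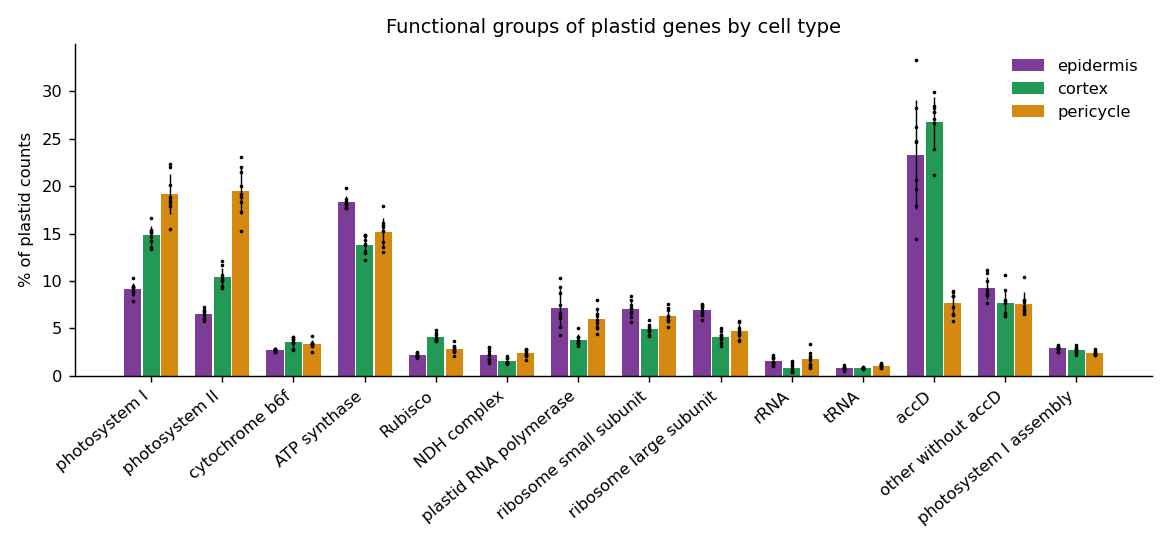
Share of the plastid counts (vertical axis, percent) held by each functional group of plastid genes and by accD, in epidermis, cortex and pericycle. Bars are means of 9 libraries, error bars are SD and points are libraries. Photosystem II holds 6.53, 10.4 and 19.5% in epidermis, cortex and pericycle, and accD holds 23.3, 26.8 and 7.68%.

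For gene tests each member was scaled in 2 ways, and the scales answer different questions. On the nuclear scale a member was set against the nuclear genes of its library, so the share of all plastid transcripts enters every difference. On the within-set scale it was set against the summed plastid counts, so only the mix enters, and a gene can be higher only if others are lower. All log2 differences below come from edgeR's quasi-likelihood test over all entries with Benjamini-Hochberg adjustment, a member was called at an adjusted p under 0.05, and errors on them are SE.

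On the nuclear scale most plastid transcripts were lower in epidermis and in cortex than in pericycle, and fewer than that were called between epidermis and cortex. Epidermis set against cortex gave 44 of 95 members called, 3 higher and 41 lower, against 39.5% of all 19230 entries (19.6% higher and 19.9% lower). Epidermis set against pericycle gave 86 called, 1 higher and 85 lower, against 45.4% of all entries (22.1% higher and 23.3% lower). Cortex set against pericycle gave 67 called, 4 higher and 63 lower, against 43.4% (20.5% higher and 23.0% lower). The median member differed by -0.63, -1.32 and -0.88 in the 3 comparisons, and the median of all entries by 0.04, 0.0029 and -0.08. Without epidermis flg22 2, a library that stands apart below, epidermis gave 40 members called against cortex (3 higher, 37 lower) and 80 against pericycle (1 higher, 79 lower). With the mock libraries alone the calls were 6, 23 and 7, and within the shared pool cortex and pericycle gave 6.

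**Figure D3:**
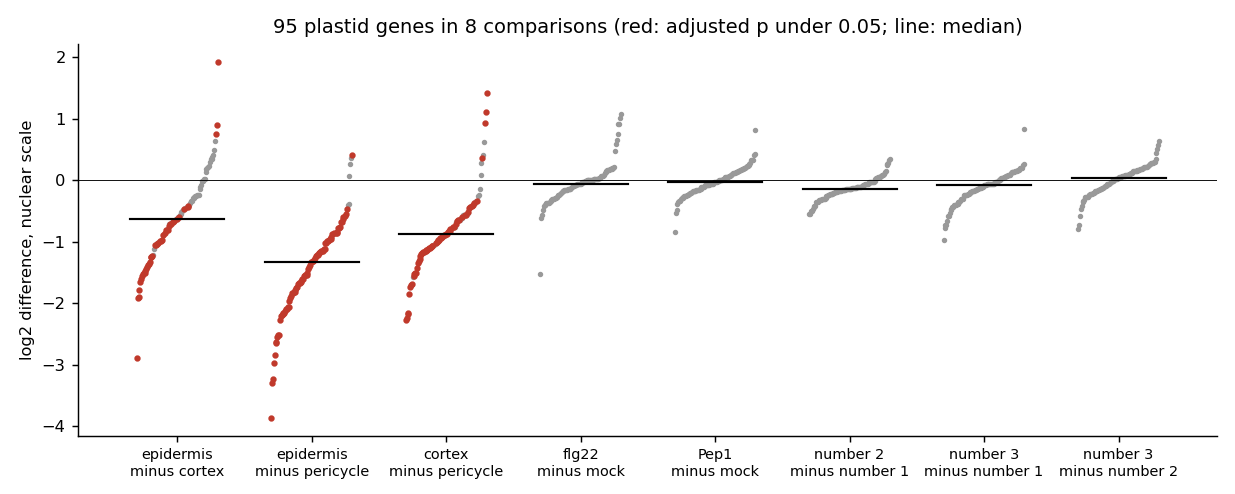
Log2 difference on the nuclear scale (vertical axis) of the 95 plastid members tested, sorted by value within each of 8 comparisons between cell types, labels and library numbers. Red points have an adjusted p under 0.05 and the line is the median. The medians of the 3 comparisons between cell types are -0.63, -1.32 and -0.88, and no member is red in the 5 others.

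On the within-set scale the members called ran in both directions. Epidermis set against cortex gave 42 called, 28 higher and 14 lower, against 39.6% of all entries (19.7% higher and 19.8% lower). Epidermis set against pericycle gave 41, 14 higher and 27 lower, against 45.2% (22.2% higher and 23.0% lower), and cortex set against pericycle gave 40, 7 higher and 33 lower, against 43.2% (20.5% higher and 22.8% lower). These shares of members called were close to those of all entries. The split between higher and lower calls depended on the centring, since with TMM factors over the plastid rows it was 15 higher and 19 lower for epidermis against cortex, 16 and 24 for epidermis against pericycle, and 13 and 18 for cortex against pericycle. Without epidermis flg22 2 the counts were 38 (25 higher, 13 lower) and 38 (13 higher, 25 lower) for epidermis against cortex and pericycle. With the mock libraries alone they were 7, 10 and 5, and within the shared pool cortex and pericycle gave 6.

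The photosystem II genes were called in 1 direction only. Of the 15, the nuclear scale called 13 lower in epidermis than in cortex, 15 lower in epidermis than in pericycle and 9 lower in cortex than in pericycle, with 0 higher in any of the 3, and the within-set scale called 6, 12 and 7 lower and 0 higher. Of all entries, 19.9, 23.3 and 23.0% were called lower in these comparisons on the nuclear scale and 19.8, 23.0 and 22.8% on the within-set scale. PsbA had the largest fall of any member tested in both comparisons with epidermis on the within-set scale. Its share of the plastid counts had a lowest, median and highest value of 0.582, 0.659 and 0.920% in epidermis, 2.56, 3.18 and 4.09% in cortex, and 3.32, 4.64 and 5.95% in pericycle. No epidermis library reached the lowest library of the other cell types, and cortex and pericycle overlapped. The within-set difference was -2.12 ± 0.15 for epidermis against cortex (adjusted p = 4.3e-12), -2.67 ± 0.15 for epidermis against pericycle (2.7e-14) and -0.55 ± 0.14 for cortex against pericycle (0.0026).

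The neighbouring genes psbD, psbC and psbZ set the pericycle apart from both other cell types. PsbC held 1.13, 1.40 and 1.79% (lowest, median, highest) in epidermis, 1.2, 1.38 and 1.52% in cortex, and 3.01, 3.83 and 4.41% in pericycle. The pericycle libraries did not overlap with the others, and epidermis and cortex lay over each other. The within-set difference of psbC was 0.08 ± 0.12 for epidermis against cortex (edgeR adjusted p = 0.62), -1.34 ± 0.12 for epidermis against pericycle and -1.42 ± 0.12 for cortex against pericycle. For psbD, whose end overlaps psbC as printed above, the differences from pericycle were -1.82 ± 0.17 in epidermis and -1.74 ± 0.17 in cortex. For psbZ, a small photosystem II subunit, they were -2.15 ± 0.27 and -1.83 ± 0.26, and for ATCG00290, a tRNA entry between psbC and psbZ, -2.10 and -1.82. PsbT, another small subunit, had 1053 counts in all libraries together and held 0.0211% (median) in epidermis, 0.0536% in cortex and 0.0625% in pericycle, with -1.18 ± 0.37 for epidermis against cortex.

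The photosystem I genes did not move as one. PsaA and psaB, which are neighbours and encode the reaction centre, had their smallest shares in epidermis and their largest in pericycle. PsaB held 2.84, 4.28 and 5.76% in epidermis (lowest, median, highest), 5.69, 7.46 and 9.17% in cortex, and 8.84, 11.8 and 15.1% in pericycle, so that only single libraries of neighbouring cell types overlapped. The within-set differences of psaA were -1.16 ± 0.12 for epidermis against cortex, -1.68 ± 0.12 for epidermis against pericycle and -0.52 ± 0.12 for cortex against pericycle, all called. PsaI, which lies beside accD on the genome, went the other way with respect to the pericycle. It held 1.90, 2.60 and 3.49% in epidermis, 2.24, 3.49 and 4.80% in cortex and 0.833, 1.14 and 1.43% in pericycle, and its within-set differences were 1.26 ± 0.14 for epidermis against pericycle (adjusted p = 1.8e-08) and 1.52 ± 0.14 for cortex against pericycle (1.6e-09).

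AccD was the most abundant member, and its share was far larger in epidermis and cortex than in pericycle. Its share was 14.5, 24.6 and 33.3% in epidermis (lowest, median, highest), 21.2, 27.8 and 29.9% in cortex, and 5.73, 8.37 and 8.95% in pericycle. No pericycle library reached the lowest library of the other cell types, whereas epidermis and cortex overlapped, with 4 epidermis libraries below the lowest cortex library and 1 above the highest. The within-set difference was -0.21 ± 0.14 for epidermis against cortex (edgeR adjusted p = 0.23), 1.59 ± 0.14 for epidermis against pericycle (2.6e-10) and 1.80 ± 0.14 for cortex against pericycle (6.0e-11). On the nuclear scale accD was the only member called higher in epidermis than in pericycle (0.41 ± 0.13), and cortex was 1.42 ± 0.13 above pericycle. In the shared pool accD held 27.8 and 26.7% in the cortex libraries Pep1 1 and 2, and 8.45 and 7.29% in the pericycle libraries Pep1 1 and 2. Within epidermis the share went with the pool: mock 3 and the 3 Pep1 libraries, of 1 pool, held 14.5 to 20.7%, and the 5 others 24.6 to 33.3%.

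Since accD alone held so much, the other shares were also taken without it. The plastid share of the gene counts was then 0.322 ± 0.0984% in epidermis, 0.514 ± 0.0659% in cortex and 0.992 ± 0.154% in pericycle. The log2 ratio of photosystem I shares of cortex and pericycle was -0.03 without accD, whereas for photosystem II it was -0.57 without accD.

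The genes downstream of accD and psaI shared their direction between cortex and pericycle. Ycf4, a photosystem I assembly factor, cemA, an envelope membrane protein, and petA, cytochrome f of the b6f complex, had within-set differences of 0.83 ± 0.21, 0.78 ± 0.14 and 0.66 ± 0.15 for cortex against pericycle, all called. PetA, like rpoA, rpoB, rpoC2 and rps2 below, was added to the named genes after its values were seen. RbcL, which lies just before accD, was also higher in cortex than in pericycle (0.52 ± 0.11, adjusted p = 0.00061), and lower in epidermis than in cortex (-0.90 ± 0.11, 3.1e-07). The rbcL share did not overlap between epidermis (1.89 to 2.52%) and cortex (3.63 to 4.82%).

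**Figure D4:**
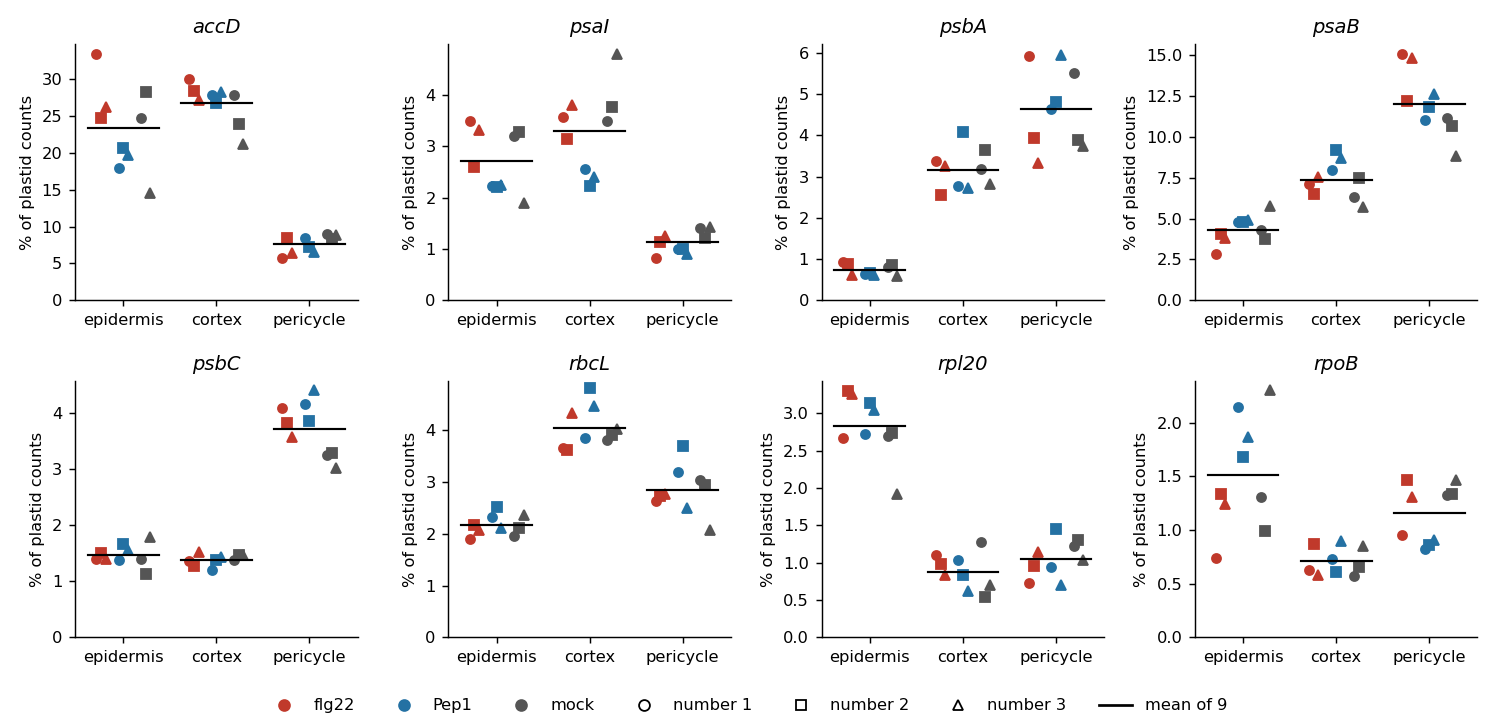
Share of the plastid counts (vertical axes, percent) of 8 plastid genes in each of the 27 libraries by cell type. Colour is the treatment label, the symbol is the library number and the line is the mean of 9 libraries. PsbA is lowest in epidermis (0.582 to 0.920%), psbC is highest in pericycle (3.01 to 4.41%), rpl20 is highest in epidermis (1.92 to 3.30%) and accD is lowest in pericycle (5.73 to 8.95%).

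Genes of the plastid RNA polymerase and the ribosome took larger shares of the plastid counts in epidermis than in cortex. All 4 polymerase genes were called higher on the within-set scale, against 19.7% of all entries: rpoB (1.07 ± 0.19), rpoC1 (0.94 ± 0.16), rpoC2 (0.94 ± 0.19) and rpoA (0.60 ± 0.15), and on the nuclear scale 0 of the 4 were called in either direction and all 4 were lower in epidermis and in cortex than in pericycle. RpoC1, the member with the most counts of the group, held 1.58, 2.25 and 3.51% in epidermis (lowest, median, highest), 1.02, 1.17 and 1.91% in cortex, and 1.42, 2.21 and 2.73% in pericycle. Epidermis and cortex overlapped only through cortex mock 3 (1.91%). Within epidermis the summed share of the polymerase genes went with the pool. Mock 3 and the Pep1 libraries, of the same pool, held 7.42 to 10.3%, and the other epidermis libraries 4.28 to 6.65%. The cortex libraries held 3.11 to 5.03%. The genes that follow rpoB and rpoC1 along the genome, rpoC2, rps2, a ribosomal protein gene, and atpI, an ATP synthase subunit, were also higher in epidermis than in cortex, rps2 by 0.89 ± 0.17 and atpI by 1.53 ± 0.24.

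Among the ribosomal genes rpl20, of the large subunit, stood out in epidermis. It held 1.92, 2.73 and 3.30% there (lowest, median, highest), 0.539, 0.839 and 1.28% in cortex, and 0.702, 1.03 and 1.45% in pericycle. The epidermis libraries overlapped with no other library. The within-set difference was 1.70 ± 0.18 for epidermis against cortex (edgeR adjusted p = 1.0e-08) and 1.43 ± 0.18 for epidermis against pericycle (1.2e-07), and on the nuclear scale rpl20 was 0.91 ± 0.19 higher in epidermis than in cortex. Its neighbour rps18, of the small subunit, was 0.76 ± 0.16 and 0.72 ± 0.16 higher on the within-set scale. Of the 18 ribosomal protein members tested, the within-set scale called 3 of 7 large-subunit and 5 of 11 small-subunit genes higher in epidermis than in cortex, and 0 lower, against 19.7% of all entries higher and 19.8% lower.

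The remaining groups gave smaller or less certain differences. Of the 10 tested genes of the NADH dehydrogenase-like complex, the within-set scale called 4 higher in epidermis than in cortex, against 19.7% of all entries, and 4 lower in cortex than in pericycle, against 22.8%. NdhF held 0.228, 0.456 and 0.809% (lowest, median, highest) in epidermis, 0.139, 0.194 and 0.279% in cortex, and 0.182, 0.264 and 0.420% in pericycle, ranges that overlapped, with 1.21 ± 0.23 for epidermis against cortex. All 6 ribosomal RNA entries tested lie in the inverted repeat, where read pairs have 2 possible places. On the within-set scale all 6 were called higher in epidermis than in cortex, and 4 of the 6 were lower in cortex than in pericycle. Of all entries, 19.7 and 22.8% were called in these directions. The 6 are copies of one another in pairs, so they are not separate members. Summed, rRNA held 1.17, 1.57 and 1.36% of the plastid counts in the cortex flg22 libraries, inside the epidermis range (1.01 to 2.19%). The cortex mock and Pep1 libraries (0.357 to 1.00%) lay below that range. For epidermis against cortex ATCG00960 was at 2.60 ± 0.73 and ATCG01170 at 1.33 (called in 15 of the 27 fits that each leave out 1 library). Both had 25 counts or fewer in every library. Of the 16 tRNA entries tested, 1 was called higher and 2 lower in epidermis than in cortex, below the 19.7 and 19.8% of all entries.

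**Figure D5:**
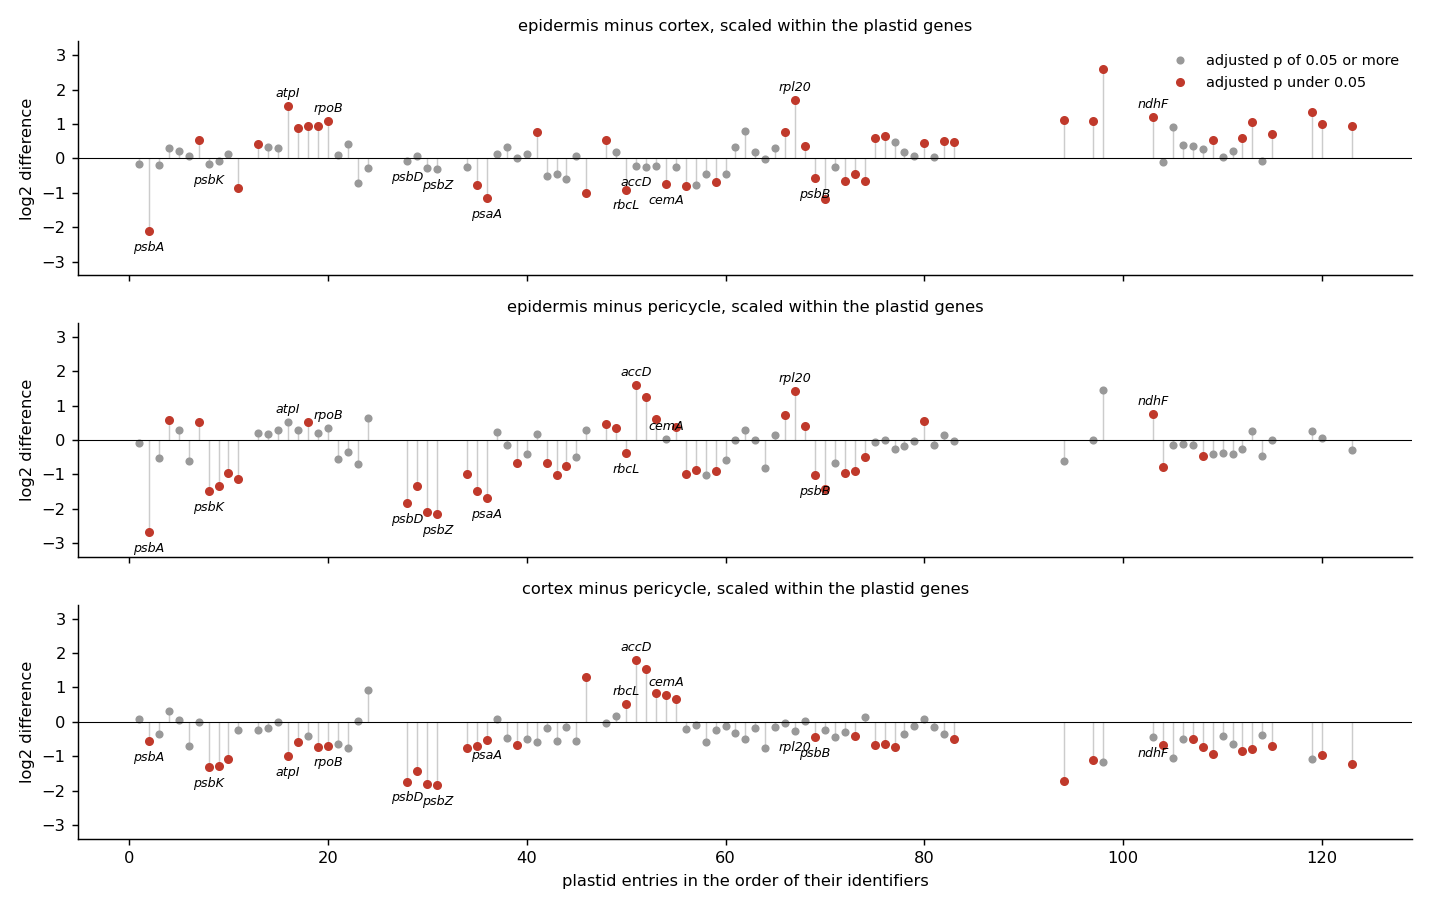
Log2 difference on the within-set scale (vertical axes) of the 95 plastid members tested, in the order of their identifiers along the plastid genome, for epidermis minus cortex, epidermis minus pericycle and cortex minus pericycle. Red points have an adjusted p under 0.05. Neighbours share their direction in stretches, such as atpI to rpoB above 0 in the upper panel, psbD to psbZ below 0 in the other 2, and accD to cemA above 0 in the lowest.

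No plastid member was called between treatment labels in the main edgeR fits, and over the 27 libraries no other entry was called either. That fit takes the label effect as the same in all cell types. The paper, with DESeq2 within each cell type and without plastid entries, reports many nuclear genes that respond to flg22 or Pep1. The absence of calls here therefore does not show a lack of response. For flg22 against mock edgeR called 0 of 95 members (0% of all entries) on the nuclear and on the within-set scale, with 4 and 11 members at an unadjusted p under 0.05 and 1 and 0 called by DESeq2. For Pep1 against mock it called 0 (0% of all entries) on both scales, with 2 and 7 members at an unadjusted p under 0.05 and 1 called by DESeq2 on each scale. Fitted within each cell type on the nuclear scale, flg22 against mock gave 0 of 91 members in epidermis, 0 of 90 in cortex and 0 of 98 in pericycle (0% of all entries in each; 11, 5 and 8 members at an unadjusted p under 0.05). Pep1 against mock gave 0 members in epidermis, cortex and pericycle as well, where 0, 0.692 and 0.0157% of all entries were called and 0, 15 and 3 members had an unadjusted p under 0.05. DESeq2 called 2 members for flg22 in cortex, 2 for flg22 in pericycle and 2 for Pep1 in cortex.

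The members that DESeq2 called are given with their libraries, having been chosen for that call. PsaI held 2.56, 2.24 and 2.40% of the plastid counts in cortex libraries labelled Pep1 and 3.49, 3.77 and 4.80% in those labelled mock, and the 2 sets did not overlap. Its pericycle shares were 1.01, 1.00 and 0.909% with Pep1 and 1.41, 1.22 and 1.43% with mock, again without overlap. In epidermis the Pep1 libraries (2.23, 2.21 and 2.25%) lay between mock 3 (1.90%) and the other mock libraries (3.21 and 3.28%). Cortex Pep1 3 shared its pool with the cortex mock libraries, and epidermis mock 3 with the epidermis Pep1 libraries. In pericycle the Pep1 and mock libraries shared no pool, so label and pool cannot be told apart there. Over all 27 libraries the within-set difference of psaI was -0.52 ± 0.14 (adjusted p = 0.53 in edgeR and 0.039 in DESeq2).

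A ribosomal RNA entry differed with flg22 in the same way. ATCG01180, in the inverted repeat, held 0.688, 0.931 and 0.795% in cortex libraries labelled flg22 and 0.220, 0.497 and 0.601% in cortex mock libraries. In pericycle it held 1.17, 1.36 and 1.86% with flg22 and 0.433, 0.686 and 0.516% with mock. Neither pair of sets overlapped, whereas in epidermis flg22 (1.17, 1.13 and 0.700%) and mock (0.853, 1.25 and 0.852%) did. ATCG00950, whose read pairs have another possible place in the second copy of the repeat, was 1.01 ± 0.26 higher with flg22 over the 27 libraries on the nuclear scale (adjusted p = 0.31 in edgeR and 0.044 in DESeq2). In pericycle ATCG01180 was 1.81 higher with flg22 on that scale (adjusted p = 0.00017 in DESeq2). The main edgeR fit did not call it there. EdgeR called it without the filter (1.81, adjusted p = 0.0074) and in the fit on all 27 libraries (1.87, 0.0020), each time with ATCG00950. Summed over the rRNA entries, the pericycle Pep1 libraries (1.71, 1.87 and 1.29%) also lay above the pericycle mock libraries (0.783, 1.19 and 0.958%). The difference from mock in pericycle was thus not particular to flg22. In cortex the Pep1 sums (0.530, 0.490 and 0.447%) overlapped with mock (0.357, 0.765 and 1.00%). In cortex and in pericycle the flg22 and mock libraries were sequenced in different pools, so label and pool cannot be told apart there. The pericycle Pep1 libraries shared no pool with mock either.

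PsaB was the third such member, with 7.99, 9.17 and 8.71% of the plastid counts in cortex Pep1 libraries and 6.30, 7.46 and 5.69% in cortex mock libraries. Its difference on the nuclear scale was 0.79 in DESeq2 (adjusted p = 0.021), and psaA was called with it.

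Between library numbers many entries were called, but no plastid member. Number 3 against number 1 called 12.2% of all entries on each scale and 0 members, with 10 members on the nuclear and 2 on the within-set scale at an unadjusted p under 0.05, and DESeq2 called 2 and 0. Number 2 against number 1 called 2.20% of all entries on the nuclear and 2.22% on the within-set scale, and number 3 against number 2 called 2.95% on each, with 0 members called by edgeR or DESeq2 and 0 at an unadjusted p under 0.05.

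The nuclear genes that serve plastids did not share 1 order. Of 21 nuclear genes for plastid transcription, among them the sigma factors and the proteins that surround the plastid polymerase, 20 were tested on the nuclear scale. Of these, 7 were called higher in epidermis than in cortex and 0 lower, 3 were called lower in epidermis than in pericycle, and 11 were called lower in cortex than in pericycle. Of all entries, 19.6% were called higher in epidermis than in cortex, 23.3% lower in epidermis than in pericycle and 23.0% lower in cortex than in pericycle, so the 3 called lower in epidermis than in pericycle were no more than the background. SCA3 (AT2G24120), the phage-type polymerase of plastids, had a median of 8.73 CPM in epidermis, 2.96 CPM in cortex and 41.2 CPM in pericycle, and no pericycle library (23.7 to 55.2 CPM) overlapped with cortex (1.78 to 9.24 CPM). SIG6, a sigma factor of the plastid polymerase, had a median of 1.17 CPM in epidermis, 0.169 CPM in cortex and 6.45 CPM in pericycle. GLK2, a transcription factor that promotes greening, was nearly lacking in epidermis, at 0 to 1.80 CPM against 8.99 to 68.7 CPM in cortex and 2.35 to 57.1 CPM in pericycle.

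Epidermis flg22 2 stood apart in the nuclear photosynthesis genes. The 29 genes of that list summed to 1115 CPM in this library, to 18.0 to 30.3 CPM in the 8 other epidermis libraries, to 64.5 to 196 CPM in cortex and to 101 to 344 CPM in pericycle. Its plastid transcripts did not stand apart in the same way, with 0.371% of the gene counts. Of 22 genes of the list tested, 2 were called higher and 5 lower in epidermis than in cortex with the library, close to or below the 19.6% higher and 19.9% lower of all entries. Without it 0 of 20 were called higher and 11 lower. Against pericycle 1 was called higher and 9 lower in epidermis with the library, and 1 higher and 15 lower without it, where 22.1% of all entries were called higher and 23.3% lower with all libraries. LHCB6, an antenna protein of photosystem II, differed by -3.88 ± 0.47 for epidermis against cortex without that library.

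Markers matched the labelled cell types in part. Gene counts per library ran from 4172741 to 17188823, of which 23700 to 151904 were plastid counts. The 4 non-hair epidermis markers summed to 228 to 633 CPM in epidermis, 22.1 to 56.3 CPM in cortex and 0.625 to 59.0 CPM in pericycle, and the 3 pericycle markers to 6.12 to 16.1, 7.73 to 38.2 and 610 to 1969 CPM. Of the 2 cortex markers, AT1G09750 had 2.22 to 6.96 CPM in epidermis, 114 to 323 CPM in cortex and 7.01 to 114 CPM in pericycle, and AT1G62500 was at 0 in every cortex library. The 3 endodermis markers summed to 2.00 to 9.11 CPM in epidermis, 12.6 to 45.8 CPM in cortex and 7.01 to 44.0 CPM in pericycle. The part of endodermis cells in these values was not tested. The 3 vascular markers summed to 29.2 to 240 CPM in pericycle, against at most 2.80 CPM in epidermis and 5.0 CPM in cortex. The pericycle sum came mainly from SUC2 (median 90.5 CPM) and APL (25.9 CPM), whereas VND7 had a median of 0 CPM there. The part of vascular cells in the pericycle values was not tested.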

How the data were processed

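Read pairs were aligned and counted by the authors, with STAR and LiBiNorm against TAIR10 and Araport11, without use of strand, according to the study's methods; the labels name TopHat2 2.0.14 and HTSeq instead. Each of the 27 deposited tables lists whole read counts by gene, with no normalization. Rows that name no gene were left out, and among them pairs without a unique place made up 39.2, 60.0 and 64.0% of the listed pairs in epidermis, cortex and pericycle. The study left plastid and mitochondrial entries out of its own tests; they are analysed here. Genes were tested in edgeR 4.0.16 (limma 3.58.1, R 4.3.3) over all entries kept by filterByExpr (minimum count 10, total 15), with cell type, treatment label and library number (the replicate, which the study's own model treats as a batch) in the model, or label and number within 1 cell type. TMM factors came from nuclear genes without 4 rRNA and 343 ribosomal protein genes (nuclear scale); plastid rows were alternatively scaled by the plastid total (within-set scale). DESeq2 1.42.0, other normalizations, no filter, no number term, mock libraries alone and leaving out each library were alternatives. The fits were tested on simulated data. Shares and group sums carry no p-value. Members named are the 10 with the highest mean share, the one with the most counts in each functional group and, in each comparison, the 5 largest differences each way among members called; nuclear genes named are the 3 with the smallest p of a list in a comparison, and markers. Names follow the TAIR nomenclature, of which 83 members matched a single RefSeq TAIR10.1 gene in the same order along the genome; tRNA and rRNA entries, which share names, are given by identifier. The members, gene lists and comparisons were chosen with earlier results of these data known.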

Additional observations from a re-analysis of the deposited data

Results flagged for a closer look

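In 10 of 165 sets of 9 libraries a single library lay far from the 8 others by Dixon's criterion, which chance meets in about 1 set in 20. Pericycle flg22 1 had the highest plastid share of the gene counts, 1.43%, with the next pericycle library at 1.12%. Epidermis flg22 2 had 1115 CPM of nuclear photosynthesis transcripts, with the next epidermis library at 30.3 CPM. Cortex mock 3 was the extreme cortex library for petB (0.848% of plastid counts, next 1.15%), rpoC1 (1.91%, next 1.44%) and cemA (2.22%, next 1.64%). Epidermis mock 3 had the lowest rpl20 share of its cell type (1.92%, next 2.67%), epidermis Pep1 3 the highest ycf4 share (0.548%, next 0.397%) and epidermis Pep1 2 the highest ATP synthase share (19.8%, next 18.6%). In cortex Pep1 2 the photosynthesis groups together held 51.5% (next 47.7%), and in pericycle mock 3 the genes outside the groups, accD left out, held 10.4% (next 7.98%).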

How the results depend on the processing

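No named member's called difference between cell types turned its direction under the alternatives run, but 26 of 53 lost their call with the mock libraries alone and 12 of 19 within 1 pool. Calls between cell types (epidermis against cortex, epidermis against pericycle, cortex against pericycle) fell to 6, 23 and 7 on the nuclear scale and 7, 10 and 5 on the within-set scale with the mock libraries alone, where fewer libraries enter, and to 6 on each scale for cortex against pericycle within 1 pool, a setting chosen after seeing the data. Leaving out 1 library gave 39 to 49, 79 to 87 and 59 to 68 calls on the nuclear and 36 to 43, 37 to 42 and 38 to 43 on the within-set scale. It gave 0 to 3 calls for number 3 against number 1 on the nuclear scale (3 without epidermis mock 3, psbE, petB and psaC), 0 to 1 on the within-set scale (ycf1, without epidermis Pep1 1) and 0 to 1 for Pep1 in cortex (psaB, without cortex flg22 2). DESeq2 called 1 member for flg22 (ATCG00950), 1 for Pep1 on each scale (psaI), 2 for number 3 against number 1 (accD and psbE), 2 for flg22 in cortex, 2 for Pep1 in cortex and 2 for flg22 in pericycle. Without a filter Pep1 in cortex gave 1 call (psaB) and flg22 in pericycle 2, and the fit on all 27 libraries gave 3 for flg22 in pericycle. The calls for flg22 in pericycle were all ribosomal RNA entries. The cause of these was not tested. Over all read pairs the log2 ratio of plastid shares was 0.093, -0.29 and -0.38 for the 3 comparisons and 0.25 for number 3 against number 2, and without accD it was -1.67 for epidermis and -0.95 for cortex against pericycle.

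Without accD the log2 ratio of group shares for epidermis against pericycle was -0.79 for photosystem I, -1.30 for photosystem II, -0.0244 for cytochrome b6f, 0.54 for ATP synthase, -0.11 for Rubisco, 0.61 for the ribosome and -0.14 for tRNA. For cortex against pericycle it was -0.0268, -0.57, 0.41, 0.20, 0.86, 0.0481 and -0.0674 in the same order, -0.28 for the NADH dehydrogenase-like complex and -0.30 for the RNA polymerase. Within the shared pool it was -0.94 for that complex, 0.33 for Rubisco and -1.81 for rRNA.

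Without the replicate block every count of members called stayed within 1.5 times, 44 for epidermis against cortex becoming 45. Libraries of the same number in a cell type did not deviate together in every pair (r from -0.182 to 0.556, median 0.182, over 27 pairs). Of these, 16 had an r over 0.1, and the median over the 54 other pairs was -0.045. Over the plastid members the 2 medians were 0.044 and -0.015. Libraries of the same number thus shared deviations in part and not in every pair. The number was kept in the model because the study's methods treat the replicate as a batch.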
